A study of Mus musculus with 3 samples.

Results

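Forkhead transcription factors are a family of DNA-binding proteins named after a Drosophila gene. The members analysed here were the mouse genes of a list of 36 Fox symbols, found by the gene name printed for each spot of the arrays. Of the 36, 35 had at least 1 probe, out of 27670 gene names over all probes, and Foxi3 was not analysed here. Foxf1, Foxo3, Foxo4 and Foxn3 were present under 4 older names, Foxf1a, Foxo3a, Mllt7 and Ches1. The 35 genes were read by 53 probes on 62 spots, because the Foxa2 probe was spotted 10 times and 11 genes carried several probes.

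Forkhead proteins share a winged-helix domain that contacts DNA, and the letter after Fox names the subfamily. FoxA proteins can open compacted chromatin in endoderm, FoxC proteins act in mesoderm and FoxD3 in neural crest. FoxI proteins act in the head ectoderm from which the placodes form, FoxO proteins respond to insulin-type signalling, FoxM1 drives mitotic genes and FoxJ1 drives motile cilium genes.

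The study compared the ectoderm of the otic placode, which forms the inner ear, in mouse embryos of 4 to 8 somites that lacked the growth factors Fgf3 and Fgf10 or had reduced doses of them. The double null embryos were Fgf3-/-;Fgf10-/-. The double heterozygotes, Fgf3+/-;Fgf10+/-, carried 1 null allele of each gene, so both groups carried null alleles and wild-type placodes were not analysed here. Each genotype gave 3 biological pools of 10 microdissected placodes, and each of the 3 two-colour arrays set 1 double null pool (Cy5) against 1 double heterozygote pool (Cy3). The dye orientation was the same on all 3 arrays, so dye and genotype cannot be told apart. A log2 ratio below is always double null over double heterozygote, and a log2 level is the log2 of the normalized intensity of 1 channel. Errors are moderated standard errors (SE) over n = 3 arrays. In pooled tissue, fewer cells of a type and less RNA per cell cannot be told apart.

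Per array, 26452 to 28258 spots were well above background for the double heterozygote and 27284 to 29177 for the double null. All 9 surface ectoderm markers with a probe were measured, and 10 of 11 otic markers were, while Pax2 was not well above background on any array. The Fgf3 ratios were -0.69, -0.06 and -0.69 on arrays 1, 2 and 3, with a mean of -0.48 ± 0.13 (limma adjusted p = 0.121). Fgf10 had 0.31, -0.11 and 0.23, with a mean of 0.14 ± 0.09 (limma adjusted p = 0.386), and the position of both probes against the deleted sequence was not analysed here. Array 2 therefore held the smallest Fgf3 difference. Markers of other tissues were measured in these pools as well. All 7 tested heart markers of 8 lay above 0, with array medians of 0.19, 0.41 and 0.35 and a median of 0.32, and 1 of them, Myl4, rose by 0.54 (limma adjusted p = 0.0434). Their summed intensity ranged from 2886 to 4218 in the double heterozygote and from 3769 to 6287 in the double null.

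Most of the family was measured in this tissue. A probe was tested if it was well above background in 1 genotype's channel on all 3 arrays, which 41 of the 53 forkhead probes were (77.4%, against 62.0% of all 41174 probes). These 41 probes covered 27 members. For 37 probes of 24 members both genotypes were above background on every array. Another 4 probes were tested only through the double null channel, those of Foxe3 and Foxl2, 1 of Foxk1 and 1 of Foxo3. The double heterozygote signal was above background on 1 of 3 arrays for Foxe3 and on 2 of 3 for the others. For Foxe3, Foxl2 and the Foxk1 probe the double null mean was the higher one, and for the Foxo3 probe the lower.

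No probe of 8 members was tested. Foxd2, Foxf1 (a gene of lateral mesoderm), Foxi1 (an otic vesicle gene in later stages), Foxl1 and Foxp3 (the regulatory T cell factor) were not well above background in either channel on any array. Foxa3 and Foxe1, the latter a thyroid factor, were above it on 1 of 3 arrays in each channel. Foxo4 was above it on 1 array in the double null channel and on none in the double heterozygote channel. The other untested probes belonged to genes with a second, brighter probe, namely Foxj3, Foxn2, Foxo3 and Foxp2. No forkhead probe was measured on all arrays of one channel and none of the other, so no lower bound of a fold change had to be given.

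**Figure D1:**
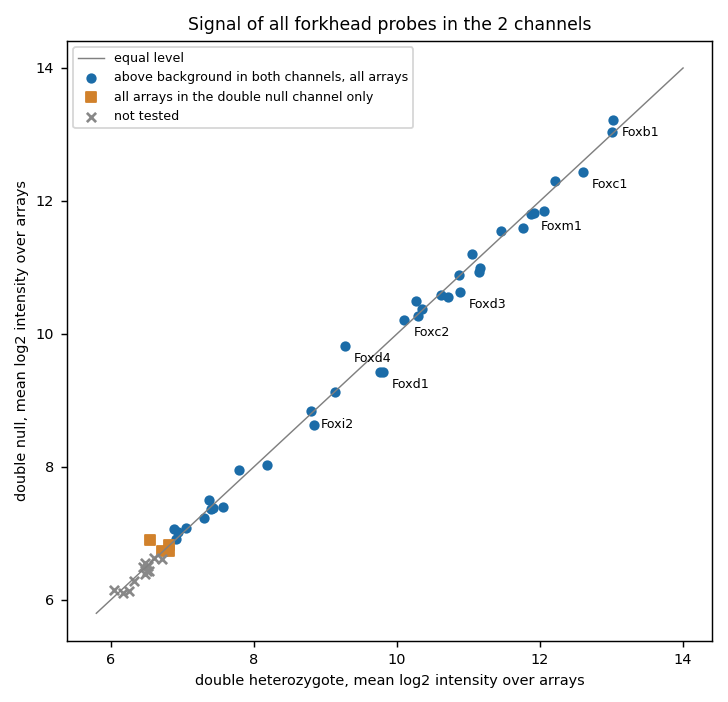
Mean log2 intensity over the 3 arrays in the double null channel (vertical axis) against that in the double heterozygote channel (horizontal axis) for all 53 forkhead probes. Points are the 37 probes above background for both genotypes on every array, squares the 4 tested through the double null channel only and crosses the 12 not tested. The probes lie close to the line of equal level, with Foxd1 below it and Foxd4 above it.

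No forkhead probe passed the threshold. At a limma adjusted p under 0.05, 0 of the 41 forkhead probes were called, while 384 of all 25504 tested probes were (1.51%), 74 of them lower (0.290%) and 310 higher (1.22%) in the double null. At an unadjusted p under 0.05 there were 17 forkhead probes of 12 members (41.5% of the 41, against 20.2% of all tested probes), 11 of them lower (26.8% against 8.37%) and 6 higher (14.6% against 11.9%). Several of these probes share a gene and its RNA. With only the brightest tested probe of each gene in the fit, 8 of the 27 members had an unadjusted p under 0.05 by limma. Over all genes 3733 did. The mean of the probes of each gene also gave 8 members, and 3218 over all genes. A fit that treated the 2 channels of an array as separate samples also called 0.

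Ratios of the family were small in both directions. They ranged from -0.37 to 0.55, with 21 probes below 0 and 20 above, and 46.0% of all tested probes lay below 0. The median was -0.01 over the forkhead probes and 0.01 over all tested probes. Within 0.25 of 0 lay 37 of the 41 (90.2%, against 95% of all tested probes). The median SE was 0.06 for both sets, and the 95% interval of 40 of the 41 probes lay within 1.5-fold of no difference in either direction. The exception was Foxd4. These intervals hold the spread over the arrays in the main fit, and neither a dye effect nor the choice of processing. Other processing moved some means outside that range. Foxo3 had -0.66 and Foxe3 -0.59 with median centring and no loess, and Foxl2 had 0.87 with the scanner's processed signals. In simulated ratios for 25504 probes, the fit called 83 of 100 probes that were shifted by 0.5 log2 units and 100 of 100 shifted by 1. The simulated noise was independent for each probe and array, with no dye or intensity effect. Without a shift, 5.38% of simulated probes had an unadjusted p under 0.05 by limma, against 20.2% of all tested probes. The simulation therefore cannot show which shifts would be missed on the real arrays.

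The sign was shared by all 3 arrays for 20 of the 41 probes (48.8%, against 43.8% of all tested probes). It was below 0 for 11 of them (19.2% of all tested probes) and above 0 for 9 (24.6%). Array 1 alone differed in sign for 8 probes, array 2 for 6 and array 3 for 7. The same happened for 18.5%, 17.5% and 20.2% of all tested probes.

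**Figure D2:**
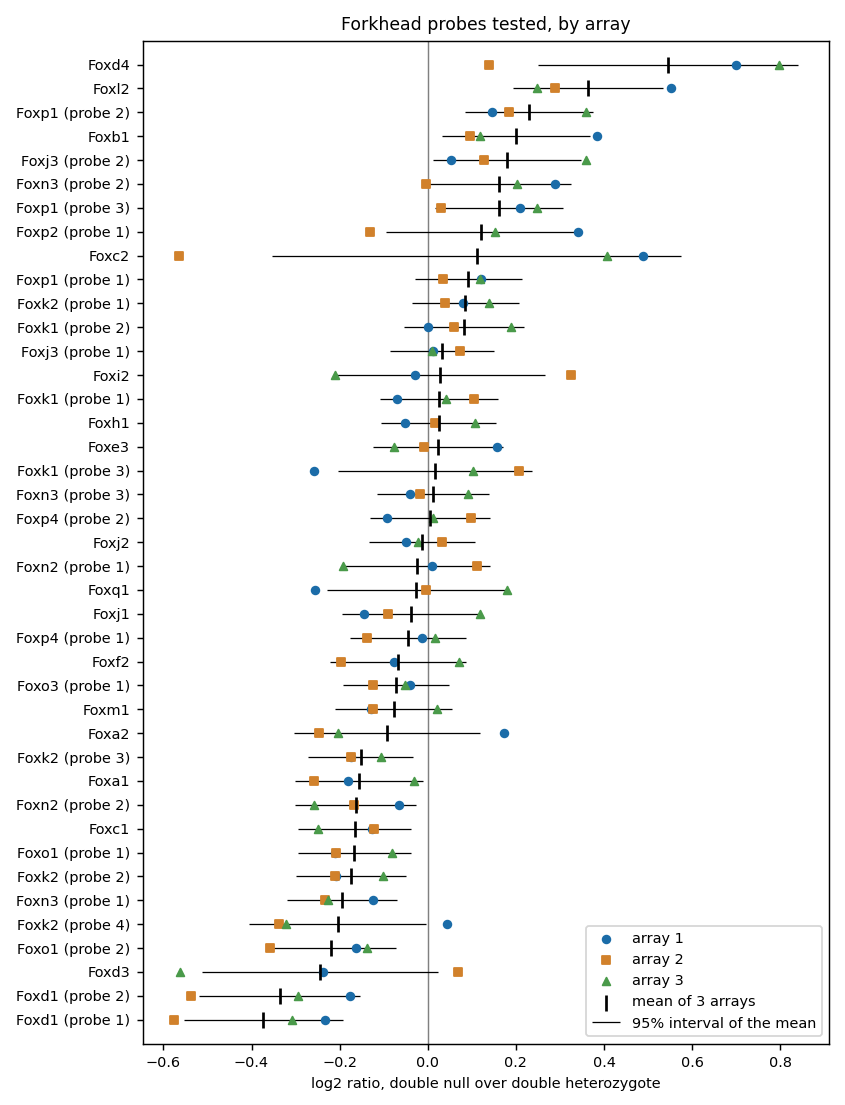
Log2 ratio, double null over double heterozygote (horizontal axis), of the 41 tested forkhead probes on each array (symbols), with the mean (vertical tick) and its 95% interval (line). Probes are ordered by mean; Foxd1 lies lowest at -0.37 and Foxd4 highest at 0.55, and none passed the threshold.

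Among the FoxD genes lay the largest ratios in both directions. Foxd1, a factor of kidney stroma and the ventral retina, was read by a pair of probes on chromosome 13 of mm7, at 95426276 to 95426335 and 95426359 to 95426418 on the plus strand. They lie close together on the transcript but read different bases, with a longest shared run of 5 bases. The first 30 bases of each are given to show this, with no letter in capitals.
Foxd1 probe 1: tctccaagaaatgcctctacttgttcacac
Foxd1 probe 2: gaaataagtcgaaatttaccatttcctatt

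The log2 levels of Foxd1 probe 1 were 9.82, 10.09 and 9.49 in the double heterozygote and 9.59, 9.52 and 9.19 in the double null on arrays 1, 2 and 3. The double null was lower on every array, but the levels of the groups overlapped across arrays. Its ratios were -0.23, -0.58 and -0.31, with a mean of -0.37 ± 0.07 (95% interval -0.55 to -0.19, limma adjusted p = 0.0741), or 1.30-fold higher in the double heterozygote. Probe 2 gave -0.18, -0.54 and -0.30, with a mean of -0.34 ± 0.08 (limma adjusted p = 0.0944). Both probes thus gave the same order of arrays, and array 2 held the lowest ratio. Under the alternatives the mean of probe 1 lay between -0.44 and -0.27, and its adjusted p between 0.00682 and 0.489. It passed the threshold with an intensity trend in the prior (adjusted p = 0.0439) and with median centring (0.00682), a setting that called 13922 probes in all.

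Foxd4, which is expressed in early neural ectoderm, had the highest ratio of the family. Its probe lies on chromosome 19 of mm7, at 24599016 to 24599075 on the minus strand. Levels were 8.76, 9.90 and 9.16 in the double heterozygote and 9.46, 10.04 and 9.95 in the double null. The double null was higher on every array, with overlap between the groups because array 2 had the highest double heterozygote level. Ratios were 0.70, 0.14 and 0.80, with a mean of 0.55 ± 0.12 (95% interval 0.25 to 0.84, 1.46-fold, limma adjusted p = 0.0944). Array 2, which had the lowest Foxd1 ratio, had the smallest Foxd4 ratio. Without array 2 the Foxd4 mean was 0.75 with a limma adjusted p of 0.0165. It was the only probe of a listed member past the threshold in that fit. Without array 1 the Foxd4 mean was 0.47 (limma adjusted p = 0.188), and without array 3 it was 0.42 (limma adjusted p = 0.257).

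Foxd3, a factor of premigratory neural crest, had ratios of -0.24, 0.07 and -0.56, with a mean of -0.24 ± 0.11 (limma adjusted p = 0.280). Its levels were 10.74, 10.72 and 11.18 in the double heterozygote and 10.50, 10.79 and 10.62 in the double null, so that array 3 held the clearest difference. Neural crest markers had array medians of -0.05, 0.05 and -0.30 over the 7 tested of 8, in the same order of arrays as Foxd3. The order was not particular to them, as hindbrain and neural plate markers had it too, with -0.16, -0.03 and -0.27. The summed intensity of all 8 neural crest markers ranged from 32390 to 44600 in the double heterozygote and from 36115 to 37926 in the double null. None of these 8 was dim on all arrays. Their part in the Foxd3 values was not tested.

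The promoters of Foxd1 and Foxd4 are shown because these genes had the extreme ratios of the family. The RefSeq table of the GRCm38.p6 assembly held windows of 300 bases, 250 before and 50 after the start, for 23 of the 36 members, 28 windows in all. The 250 bases before the start are printed with each CG dinucleotide in capitals, 12 in each of the windows. The Foxd1 window is chr13:98353995-98354244 on the plus strand and the Foxd4 window chr19:24901017-24901266 on the minus strand.
Foxd1: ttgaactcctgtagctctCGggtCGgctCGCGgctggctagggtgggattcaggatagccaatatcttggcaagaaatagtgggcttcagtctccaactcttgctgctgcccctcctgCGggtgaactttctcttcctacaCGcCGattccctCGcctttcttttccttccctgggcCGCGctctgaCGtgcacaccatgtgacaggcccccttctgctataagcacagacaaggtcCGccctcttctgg
Foxd4: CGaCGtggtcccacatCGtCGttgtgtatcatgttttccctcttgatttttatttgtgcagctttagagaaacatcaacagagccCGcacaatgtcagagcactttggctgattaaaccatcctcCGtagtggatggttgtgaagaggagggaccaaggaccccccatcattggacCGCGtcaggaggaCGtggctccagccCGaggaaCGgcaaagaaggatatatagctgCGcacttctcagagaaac

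Forkhead promoters were rich in G and C. The median GC content of the 28 windows was 63.5%, from 40.7% in Foxp3 to 79.3% in Foxk2, against 52.7% over 32851 windows of all genes. Above 55% lay 21 of the 28 windows (75.0%, against 42.4% of all windows). The Foxd4 window had 49.0% and the Foxd1 window 57.7%, both below the family's median. The ratio of observed to predicted CG dinucleotides had a median of 0.733, against 0.384 over all windows.

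Sites for forkhead proteins themselves were looked for with the letters TGTTTAC on either strand. They were found in 1 of the 28 windows (3.57%), against 3.65% of all windows. The match was in Foxa1, on the strand opposite to the gene, with its first base at -141 from the start. The 250 bases before the Foxa1 start, chr12:57546112-57546361 of GRCm38.p6 on the minus strand, are printed with the match in capitals as it reads along the gene.
Foxa1: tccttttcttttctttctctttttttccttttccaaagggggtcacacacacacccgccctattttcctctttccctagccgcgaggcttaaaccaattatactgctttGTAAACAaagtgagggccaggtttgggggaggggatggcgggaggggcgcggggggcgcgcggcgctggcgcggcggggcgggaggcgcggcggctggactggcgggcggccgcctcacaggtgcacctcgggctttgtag

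The letters CCGGAAG, part of many sites for ETS proteins, were in 0 of the 28 windows on either strand, against 8.86% of all windows. TATAAA was in 3 windows (10.7%, against 13.6%), those of Foxa2, Foxa3 and Foxp3. No motif searched overlaps another. These matches describe letters only.

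Of the FoxA genes, which mark endoderm, notochord and floor plate, 2 were measured. Foxa1 had ratios of -0.18, -0.26 and -0.03, all below 0, with a mean of -0.16 ± 0.06 (limma adjusted p = 0.220). Foxa2, averaged over its 10 spots, had 0.17, -0.25 and -0.20, with a mean of -0.09 ± 0.09 (limma adjusted p = 0.592). Its levels spanned 11.64 to 12.11 in the double heterozygote and 11.79 to 11.86 in the double null. Notochord and floor plate markers had array medians of -0.06, -0.10 and 0.02 over 7 tested of 8. Their summed intensity ranged from 3976 to 4429 in the double heterozygote and from 3738 to 4085 in the double null. Of 9 endoderm markers with a probe only 4 were tested, and 3, Ttr, Apoa1 and Nkx2-1, were not above background on any array. The 4 tested had a median of 0.18, with 3 above 0, namely Afp at 0.25, Hhex at 0.34 and Cer1 at 0.10, none of them past the threshold. The remaining one, Sox17, fell by 0.54 on the log2 scale (limma adjusted p = 0.0155). The summed intensity of all 9 ranged from 1709 to 2112 in the double heterozygote and from 1493 to 2025 in the double null. The part of these tissues in the FoxA values was not tested.

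Foxb1, a gene of the neural tube, had levels of 12.95, 13.14 and 12.97 in the double heterozygote and 13.34, 13.24 and 13.08 in the double null. Its ratios of 0.38, 0.10 and 0.12 gave a mean of 0.20 ± 0.07 (limma adjusted p = 0.191). The double null was higher on every array, most on array 1, and the groups overlapped. Hindbrain and neural plate markers lay on the other side, with 8 of 8 tested below 0, a median of -0.12 and array medians of -0.16, -0.03 and -0.27, and 0 of the 8 passed the threshold by limma, while 2 had an unadjusted p under 0.05. The summed intensity of these markers ranged from 79507 to 102884 in the double heterozygote and from 78821 to 89306 in the double null. Their part in the Foxb1 and Foxd4 values was not tested.

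Both FoxC genes, which act in head and paraxial mesoderm, were measured. Foxc1 had levels of 12.56, 12.64 and 12.60 in the double heterozygote and 12.43, 12.52 and 12.35 in the double null, with no overlap between the groups. Its ratios of -0.13, -0.12 and -0.25 gave a mean of -0.17 ± 0.05 (limma adjusted p = 0.168), which became 0.02 when arrays were centred on the median with no loess. Foxc2 had ratios of 0.49, -0.56 and 0.41, with the widest standard error of the family, for a mean of 0.11 ± 0.19 (limma adjusted p = 0.781). Its double heterozygote levels were steady at 10.18, 10.08 and 10.04, and its double null levels were 10.67, 9.52 and 10.45. The Foxc2 levels were thus more spread over the double null pools than over the double heterozygote pools.

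Head mesoderm markers had array medians of 0.14, -0.03 and -0.04, and blood and endothelial markers 1.15, -0.03 and 0.16. Their summed intensities ranged from 29123 to 34463 and from 5919 to 6932 in the double heterozygote, and from 27555 to 34629 and from 6091 to 12604 in the double null. All 9 head mesoderm probes were above background on some array, while Gata1 and Pecam1 of the 10 blood and endothelial genes were not. The embryonic globin Hbb-bh1 had 1.43, -0.51 and 2.69, with the sign of Foxc2 on each array, and Hba-x and Kdr had the same signs. The remaining tested genes of that list did not. Cdh5 (1.45, 0.42 and 0.14) and Tek (0.41, 0.26 and 0.09) were above 0 on every array. Ramp2 had 0.44, -0.03 and -0.01. The signs of Foxc2 were not particular to the blood and endothelial list. Prrx1 of head mesoderm had them (0.58, -0.07 and 0.19), as did Isl1 of heart (0.40, -0.10 and 0.19) and Hhex of endoderm (0.86, -0.06 and 0.21). Not all tested genes of those lists did. Over all tested probes, array 2 alone differed in sign for 17.5%. What blood, endothelial or head mesoderm cells contributed to the Foxc2 values was not tested.

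**Figure D3:**
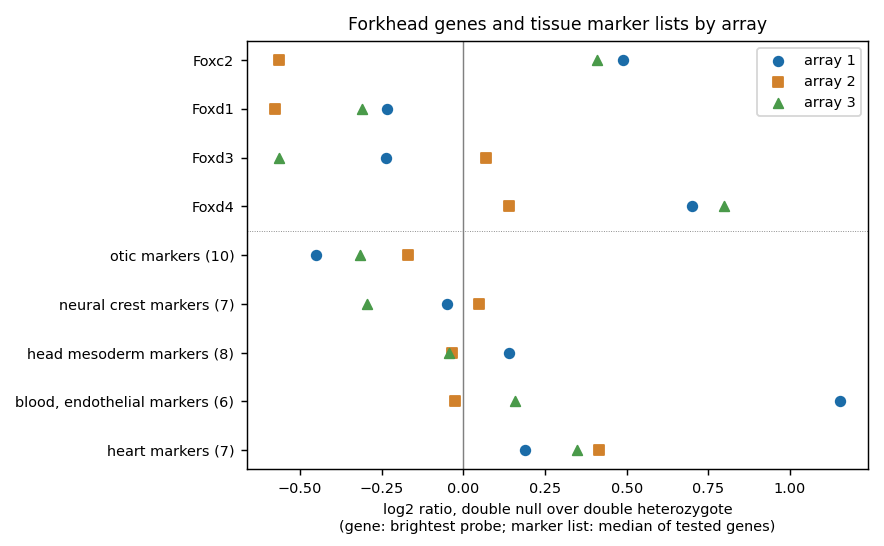
Log2 ratio, double null over double heterozygote (horizontal axis), of Foxc2, Foxd1, Foxd3 and Foxd4 (upper rows, brightest probe) and the median over the tested genes of 5 marker lists (lower rows, number of genes in brackets), with 1 symbol per array. Array 2 stands apart from arrays 1 and 3 for all these forkhead genes except Foxd3, where array 3 lies lowest.

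Of the FoxI genes, only Foxi2 was measured. Foxi2 is known from head surface ectoderm outside the otic placode. Its levels were 8.90, 8.46 and 9.06 in the double heterozygote and 8.87, 8.78 and 8.85 in the double null, and the groups overlapped. Ratios of -0.03, 0.32 and -0.21 gave a mean of 0.03 ± 0.10 (95% interval -0.21 to 0.27, limma adjusted p = 0.898). Surface ectoderm markers had array medians of -0.18, 0.00 and -0.11, and 0 of the 9 tested passed the threshold.

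Foxe3, a lens placode factor, was near background, with ratios of 0.16, -0.01 and -0.08 and a mean of 0.02 ± 0.06 (limma adjusted p = 0.858). Foxf2, a gene of mesenchyme, had a mean of -0.07 ± 0.06 (limma adjusted p = 0.592), and Foxq1 had ratios of -0.255, -0.0045 and 0.18 with a mean of -0.03 ± 0.08 (limma adjusted p = 0.889). None of these genes kept its sign on all 3 arrays.

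Foxl2, known for its roles in ovary and eyelid, had the lowest adjusted p of the family, but its signal was close to background. Levels were 6.36, 6.61 and 6.67 in the double heterozygote, where 2 of 3 arrays were above background, and 6.91, 6.90 and 6.91 in the double null. The groups did not overlap. Ratios were 0.55, 0.29 and 0.25, with a mean of 0.36 ± 0.07 (95% interval 0.19 to 0.53, limma adjusted p = 0.0701). The sign turned to -0.25 with median centring and no loess, and this probe passed through the double null channel only. The ratio was larger with a background offset of 16 (0.58), the authors' log2 ratios (0.65) and the scanner's processed signals (0.87). These larger ratios did not pass the threshold (limma adjusted p = 0.116, 0.2 and 0.212). A loess span of 0.1 gave 0.36, and leaving out 1 array gave 0.27 to 0.42. The size of the Foxl2 ratio thus depended on the processing.

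At an adjusted p under 0.10 the forkhead probes called were thus 4, both Foxd1 probes lower and Foxd4 and Foxl2 higher. Over all tested probes 1081 reached that level (4.24%), 377 lower (1.48%) and 704 higher (2.76%).

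FoxO factors are held out of the nucleus by insulin-type and other growth factor signalling through Akt. Foxo1 was read by a pair of probes with the same direction. Probe 1 had levels of 11.24, 11.24 and 10.99 in the double heterozygote and 11.03, 11.03 and 10.91 in the double null. Its ratios were -0.21, -0.21 and -0.08, with a mean of -0.17 ± 0.05 (limma adjusted p = 0.168). Probe 2 gave -0.16, -0.36 and -0.14, with a mean of -0.22 ± 0.06 (limma adjusted p = 0.135). The double null signal was lower on all 3 arrays for each probe, while the levels of probe 1 overlapped between the groups. Foxo3 was near background, with a mean of -0.07 ± 0.05 (limma adjusted p = 0.462).

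Of 21 textbook FoxO target genes, 20 had a probe and 16 were tested. Of these, 2 rose and 0 fell, against 1.22% and 0.290% of all tested probes. By limma 5 of the 16 had an unadjusted p under 0.05, against 20.2% of all tested probes. The median of the 16 was -0.0037, against 0.01 over all tested probes. Ccng2, which encodes cyclin G2, a brake on cell division, had ratios of 0.50, 0.38 and 0.34 and rose by 0.41 ± 0.05 (limma adjusted p = 0.0233). Cdkn1b, which encodes the cell cycle inhibitor p27, had 0.42, 0.27 and 0.41 and rose by 0.37 ± 0.06 (limma adjusted p = 0.0333). A second Cdkn1b probe had 0.20, 0.15 and 0.14, with a mean of 0.16 ± 0.05 (limma adjusted p = 0.149), and the third was not above background. Without any 1 of the arrays neither gene passed, with adjusted p of 0.0613 to 0.104 for Ccng2 and 0.0636 to 0.177 for Cdkn1b. Both stayed above 0 under every alternative tried.

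FoxM1 drives genes needed in G2 and mitosis. Foxm1 had ratios of -0.13, -0.13 and 0.02, with levels of 11.78 to 11.95 in the double heterozygote and 11.79 to 11.82 in the double null. The mean was -0.08 ± 0.06 (limma adjusted p = 0.470). All 19 FoxM1 target genes on the list were tested. By limma 0 passed the threshold and 0 had an unadjusted p under 0.05, against 1.51% and 20.2% of all tested probes. Of the 19, 13 lay below 0 and 6 above, with a median of -0.03. The brightest, Birc5 (survivin) and Cdc20 (an activator of the anaphase-promoting complex), had means of 0.09 ± 0.05 and 0.06 ± 0.05 (limma adjusted p = 0.335 and 0.548), and both turned below 0 with the scanner's processed signals. Their mean log2 intensities were as high as 16.06 and 15.80, and saturation of their spots was not analysed here.

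FoxJ1 is the switch for motile cilia. Foxj1 had ratios of -0.14, -0.09 and 0.12 and a mean of -0.04 ± 0.07 (limma adjusted p = 0.777). Of 22 motile cilium genes on the list 16 were tested. By limma 0 passed and 1, Rsph1 (0.23, adjusted p = 0.109), had an unadjusted p under 0.05, against 20.2% of all tested probes. The median of the 16 was -0.03. Tekt1, which encodes a microtubule protein of the axoneme, had a mean of -0.03 ± 0.08 (limma adjusted p = 0.846), and Spag16 had 0.15 ± 0.06 (limma adjusted p = 0.25).

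Foxh1 works with Smad proteins downstream of Nodal. Its levels were 10.45, 10.48 and 10.14 in the double heterozygote and 10.40, 10.50 and 10.25 in the double null, and its ratios of -0.05, 0.02 and 0.11 gave a mean of 0.02 ± 0.05 (limma adjusted p = 0.830). Of 11 Nodal pathway genes 8 were tested, with a median of 0.03. By limma 0 passed the threshold and 1 had an unadjusted p under 0.05, against 20.2% of all tested probes. Smad2 had 0.23, 0.22 and 0.17, with a mean of 0.21 ± 0.05 (limma adjusted p = 0.104), and the brightest Smad4 probe had 0.04 ± 0.05 (limma adjusted p = 0.704). The other Smad4 probe, not part of these counts, had 0.25, 0.27 and 0.05. Its mean was 0.19 ± 0.06 (limma adjusted p = 0.177). Smad2 and Smad4 encode the signal transducers of the pathway.

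The widely expressed FoxJ and FoxK genes had no probe past the threshold. Foxj2 had a mean of -0.01 ± 0.05 (limma adjusted p = 0.910). The Foxj3 probes had means of 0.03 ± 0.05 and 0.18 ± 0.07 (limma adjusted p = 0.753 and 0.223), the second of them near background. For Foxk1 the 3 probes, all dim, had 0.03, 0.08 and 0.02 (limma adjusted p = 0.826, 0.459 and 0.938). Foxk1 and Foxk2 encode widely expressed repressors with a second domain that binds phosphorylated proteins.

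Several members were read at more than 1 place, which gave a check within the gene. Among the 9 members with several tested probes (23 probes), 6 had all probes on 1 side of 0 and 3 had probes on both sides. The 3 were Foxk2, Foxn3 and Foxp4. The starts of the Foxk2 and Foxn3 probes are printed to show that they read different stretches of their transcripts.
Foxk2 probe 1: acctgtgtcctgggtacggtgcattccaga
Foxk2 probe 2: agaatgacgtcccacactaatcctgactta
Foxk2 probe 3: ttactgaataatggggtctttgacatttca
Foxk2 probe 4: aaagattaaatgaatggacacatccttttt
Foxn3 probe 1: tgaagccatagaaactcatattgacactca
Foxn3 probe 2: tgagattaaaggcacattgatggactcaac
Foxn3 probe 3: agaaaacaagaccacaatgataaagcagaa

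Foxk2 probes 2, 3 and 4 lay below 0, and probe 1, the brightest, lay above. Probe 1 had ratios of 0.08, 0.04 and 0.14 and a mean of 0.09 ± 0.05 (limma adjusted p = 0.387). Probe 2 had -0.21, -0.21 and -0.10 with a mean of -0.17 ± 0.05 (limma adjusted p = 0.150), and probe 3 had -0.17, -0.18 and -0.11 with a mean of -0.15 ± 0.05 (limma adjusted p = 0.174). Probe 4, matched in the files to a cDNA clone, had 0.04, -0.34 and -0.32 and a mean of -0.20 ± 0.08 (limma adjusted p = 0.240). In mm7 the probes start on chromosome 11 at 121418585, 121417227, 121416515 and 121405885 on the plus strand, so the probe above 0 lies farthest along the gene. Its level was not compared with theirs.

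Foxn3, a repressor that was first described as a checkpoint suppressor, showed the widest spread between probes, 0.36. Probe 1 had ratios of -0.13, -0.23 and -0.23 and a mean of -0.19 ± 0.05 (limma adjusted p = 0.126). Probe 2 had 0.29, -0.0036 and 0.20 with a mean of 0.16 ± 0.07 (limma adjusted p = 0.248), and probe 3 had a mean of 0.01 ± 0.05 (limma adjusted p = 0.928). On the minus strand of chromosome 12 in mm7 probe 1 covers 96690862 to 96690921, probe 2 covers 96690033 to 96690092 and probe 3 covers 96685372 to 96685431. Probe 1 and probe 2 thus read nearby stretches and had opposite signs on arrays 1 and 3. Foxn2, a relative of Foxn3, had means of -0.02 ± 0.07 and -0.16 ± 0.06 for its tested probes (limma adjusted p = 0.875 and 0.190).

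**Figure D4:**
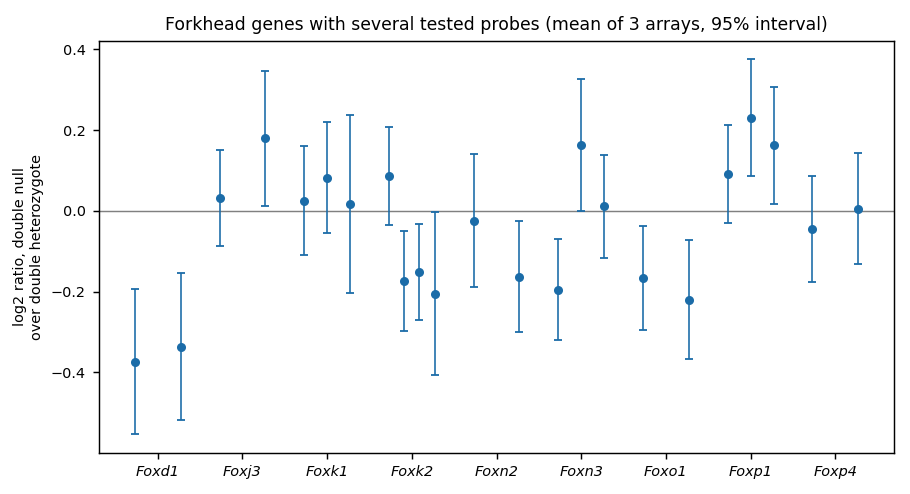
Mean log2 ratio, double null over double heterozygote (vertical axis), with its 95% interval, for each tested probe of the 9 forkhead genes with several tested probes, ordered by brightness from left to right within a gene. Foxk2, Foxn3 and Foxp4 have probes on both sides of 0; the Foxd1 and Foxo1 probes lie below 0 and the Foxp1 probes above.

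FoxP proteins pair with each other to bind DNA and act in lung, brain and immune cells. All 3 Foxp1 probes were above 0. Probe 1 had ratios of 0.12, 0.03 and 0.12 and a mean of 0.09 ± 0.05 (limma adjusted p = 0.356). Probe 2 had levels of 10.27, 10.35 and 10.18 in the double heterozygote and 10.42, 10.53 and 10.54 in the double null, without overlap. Its ratios of 0.15, 0.19 and 0.36 gave a mean of 0.23 ± 0.06 (limma adjusted p = 0.123). The files place this probe on chromosome 6 of mm7 from 99023463 to 99027800, an interval of 4338 bases for a probe of 60 bases. Probe 3 had 0.21, 0.03 and 0.25 with a mean of 0.16 ± 0.06 (limma adjusted p = 0.210), but turned to -0.085 with median centring.

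Foxp2 had ratios of 0.34, -0.13 and 0.15 and a mean of 0.12 ± 0.09 (limma adjusted p = 0.489). The Foxp4 probes had means of -0.05 ± 0.05 and 0.01 ± 0.06 (limma adjusted p = 0.680 and 0.969). Neither gene kept 1 sign over its arrays.

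Array 2, which had the smallest Foxd4 ratio and the smallest Fgf3 difference, also had the otic marker median closest to 0. Other values were farthest from 0 on array 2, with -0.58 for Foxd1 probe 1, -0.56 for Foxc2 and a heart marker median of 0.41. The array medians of the otic markers were -0.45, -0.17 and -0.32 over 10 genes. Of these 2 fell, Hmx2 by 0.59 and Sox9 by 0.69 (limma adjusted p = 0.0229 and 0.0475). The summed intensity of the 11 otic probes ranged from 25818 to 29705 in the double heterozygote and from 19578 to 22331 in the double null. The part of this in the forkhead values was not tested.

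Among forkhead genes outside the list, Foxo6 had a mean of 0.11 ± 0.05 (limma adjusted p = 0.280) and Foxs1 0.05 ± 0.06 (limma adjusted p = 0.710), and Foxb2, Foxn1 and Foxn4 were not tested.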

How the data were processed

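Per the labels, RNA of each pool was amplified and labelled with an Agilent low-input 2-colour kit. Per the file headers and the submitters' processing notes, Agilent Feature Extraction 9.5.1.1 read the spots. Scanner files, as deposited, hold spot and background intensity per channel and the scanner's log10 ratio. The log2 ratios of the authors' series table equal the scanner's within 2.01e-06.

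Background was corrected with normexp (offset 50), and ratios were normalized within arrays by loess (span 0.3, control spots at weight 0). Levels and summed intensities of a channel were taken after a further quantile normalization of intensity between arrays (Aquantile). That step left the ratios unchanged. Spots marked as outliers (143 to 175 per array) were left out, none of them a forkhead spot, and spots of a probe were averaged. Of 41174 probes 25512 were well above background in 1 channel on all arrays, and the 25504 with at least 2 values entered an intercept-only limma fit (version 3.58.1, R 4.3.3), with p-values adjusted over all of them by Benjamini-Hochberg. The array was the replicate, and its 2 pools were the pair. The number of arrays limits the precision. All arrays were on 1 slide with 1 scan date. In simulated probes without a change and with independent noise, 10 of 25304 were called.

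Members were found by the gene name in the files, 4 of them by an older name matched through RefSeq. Over all probes, RefSeq gave the name of 22951 through an accession, of 6659 through the current symbol and of 3109 through a former symbol, while 8455 kept the files' name. In gene lists the brightest tested probe stands for a gene. Probe positions are those of the files (mm7). An annotation of exons or UTRs on that build was not used here. The members, lists and tests were chosen with earlier results of these data known. Ratios are given for every tested member. From the FoxO, FoxM1, FoxJ1 and Nodal lists, genes past the threshold (up to 4) are named, and otherwise the 2 brightest tested. Rsph1 and the single tissue markers were named after their values were seen. Alternatives were other background corrections, normalizations, filters, probe rules, priors and thresholds, the series table, separate channels and each array left out. One result on a gene outside the list is not reported here, and the counts include it.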

Additional observations from a re-analysis of the deposited data

How the results depend on the processing

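The count of forkhead probes past the threshold, 0, became 23 with median centring and no loess (16 lower, 7 higher), 2 with an intensity trend in the prior (Foxd1 probe 1 and Foxl2), 4 at an adjusted p under 0.10, and 0 to 1 when each array was left out. The count over all probes, 384, became 199 with an offset of 16, 0 with the processed signals (4418 at an unadjusted p under 0.05), 31 with a loess span of 0.1, 13922 with median centring, 993 with the trend, 21 for probes of mean log2 intensity up to 15, 0 with the series table (4469 at an unadjusted p under 0.05), 1081 at an adjusted p under 0.10, and 87 to 305 without 1 array. Each array pairs 1 pool of each genotype. In a fit of separate channels with no replicate block, 185 probes were called in all and 0 of the forkhead probes. The causes of these shifts were not tested.

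Over the tested forkhead probes, those outside the list included, 654 values kept their direction and side of the threshold, 20 passed it with the direction kept, and 41 changed sign, on either side of the threshold. With median centring the values of changed sign were 0.0598 for Foxa2, 0.0234 for Foxc1, -0.59 for Foxe3, -0.0552 for Foxi2, -0.33 for Foxj3 probe 2, -0.45, -0.42 and -0.55 for Foxk1 probes 1 to 3, -0.25 for Foxl2, 0.0728 for Foxm1, 0.0366 for Foxn2 probe 1, -0.085 for Foxp1 probe 3, -0.23 for Foxp2, -0.53 for Foxp4 probe 2, 0.0567 for Foxq1 and -0.50 for Foxs1. Leaving out 1 array gave values on both sides of 0 for 15 results, with the array left out in brackets: -0.0785 (1) to 0.4485 (2) for Foxc2, -0.0425 (1) to 0.0746 (3) for Foxe3, -0.0172 (3) to 0.0623 (1) for Foxh1, -0.1193 (2) to 0.1482 (3) for Foxi2, -0.1167 (3) to 0.0148 (1) for Foxj1 and -0.0361 (2) to 0.0055 (1) for Foxj2. The other ranges were -0.0139 (2) to 0.0737 (1) for Foxk1 probe 1, -0.0775 (2) to 0.1547 (1) for Foxk1 probe 3, -0.0921 (2) to 0.0603 (3) for Foxn2 probe 1, -0.0291 (3) to 0.0369 (1) for Foxn3 probe 3, -0.0761 (3) to 0.0016 (2) for Foxp4 probe 1, -0.041 (2) to 0.0549 (1) for Foxp4 probe 2, -0.1298 (3) to 0.0876 (1) for Foxq1, -0.013 (3) to 0.1094 (1) for Foxs1 and -0.1426 (2) to 0.047 (1) for Tekt1. The processed signals gave -0.01 for Foxk1 probe 1, 0.0612 for Foxo3, -0.14 for Foxp4 probe 2, -0.18 for Birc5 and -0.14 for Cdc20. The series table gave -0.01 for Foxk1 probe 1, -0.0108 for Foxk1 probe 3, -0.14 for Foxp4 probe 2, -0.18 for Birc5 and -0.14 for Cdc20. A span of 0.1 gave -9e-04 for Foxn3 probe 3, -0.0039 for Foxp4 probe 2, -0.14 for Birc5 and -0.13 for Cdc20, and the mean of all Foxk2 probes was -0.11. Ccng2 and Cdkn1b missed the threshold with an offset of 16 (adjusted p = 0.0575 and 0.0771), the processed signals (0.207 for both), a span of 0.1 (0.0589 and 0.0802), probes up to an intensity of 15 (0.084 and 0.101), separate channels (0.307 and 0.122) and the series table (0.2 for both), and Cdkn1b also with the mean of its probes (0.0601).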

Other observations

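Genes of the Nodal pathway and the midline, named here after their values were seen, had values that differed between the arrays. Lefty1, a Nodal antagonist, had a wider standard error than any tested forkhead probe, with log2 ratios of 0.74, -2.46 and 2.54 on arrays 1, 2 and 3, with a mean of 0.27 ± 0.81 (SE, n = 3, limma adjusted p = 0.879). Nodal had 0.01, -0.30 and 0.38, and Lefty2, another antagonist, had -0.11, -0.47 and 0.34. The notochord gene T had -0.13, -0.59 and 0.15, and Shh, a signal of notochord and floor plate, had -0.07, -0.46 and 0.13. All 5 were lowest on array 2 and highest on array 3. Foxh1, which acts with Nodal, had -0.05, 0.02 and 0.11 on the same arrays, and the notochord gene Foxa2 had 0.17, -0.25 and -0.20.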
